A study of Arabidopsis thaliana with 12 samples.

Results

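The transcripts of 10 genes of the Arabidopsis thaliana circadian clock were followed: the 5 pseudo-response regulators PRR9, PRR7, PRR5, PRR3 and TOC1, the light-signalling proteins GI and ZTL, and LUX, ELF3 and ELF4, which form the evening complex. They were taken by gene identifier as named families; the rule uses no measured value, although it was set with earlier results of these data known. All 10 were among the 69383 features counted in every library, of which 37898 were nuclear genes, and all 10 were among the 22465 features left after the filter on low counts. Every one of them would have passed that filter on its 0 h libraries alone.

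The libraries came from whole seedlings 12 days old, grown in long days on a medium with sucrose. The wild type Col-0 was compared with RNAi-MARS, plants in which RNA interference is directed at MARS, a long non-coding RNA, and the question is what a lower MARS level does to gene expression with and without the stress hormone abscisic acid (ABA). Each genotype was collected without treatment (0 h) and 4 h after it was sprayed with ABA at 10 µM in water, which gives 4 groups of 3 libraries named A, B and C. There was no group sprayed without ABA or left unsprayed at 4 h, and the hour of harvest is not given in the sources used here, so the hormone, the spray and 4 h of clock time cannot be told apart in any change from 0 h to 4 h. The promoter of the construct and the number of independent transformed lines behind the RNAi-MARS libraries are likewise not given in the sources used here, and the labels do not tell whether libraries A, B and C are separate cultures. The p-values therefore rest on differences among these samples alone, which could be technical.

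The plant clock runs on transcription factors that repress each other in turn through the day. The MYB factors LHY and CCA1 peak around dawn and repress evening genes through a promoter motif called the evening element, the pseudo-response regulators follow in the order PRR9, PRR7, PRR5, PRR3 and TOC1 and repress LHY and CCA1, and the evening complex represses PRR9 and other targets at night. GI and ZTL act on protein stability: ZTL is a blue-light-sensing subunit of a ubiquitin ligase that marks TOC1 and PRR5 for destruction, and GI stabilizes ZTL. The clock gates ABA responses, and TOC1, PRR5 and PRR7 have been linked to ABA signalling and ABA-regulated genes.

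Total counts per library were 19020202 to 38787804. MARS itself was at 6.63, 2.60 and 0.344 CPM (counts scaled to a common library size) in the Col-0 libraries A, B and C at 0 h and at 0.156 to 0.196 CPM in RNAi-MARS, and at 9.09 to 21.3 against 1.34 to 4.11 CPM at 4 h, so the groups did not overlap at either time although library C of Col-0 at 0 h was close to the knockdown. All 6 shoot and all 6 root marker genes were detected in every library. The shoot markers summed to 40910 to 52600 CPM at 0 h and to 18770 to 30500 CPM at 4 h, while the root markers spanned 2010 to 2800 and 1955 to 2730 CPM. At an adjusted p under 0.05, RBCS1A, RBCS3B and RCA were lower at 4 h in both genotypes, and LHCB1.1, LHCB2.1 and PSAL passed in neither. The root sum was mostly PYK10, at 1928 to 2700 CPM at 0 h and 1896 to 2652 CPM at 4 h. Of the other root markers, SCR was lower at 4 h in both genotypes and SHR in Col-0. CASP1, COBL9 and TIP2-3 varied widely among libraries. The sum of 6 heat shock genes was 155.4 to 342.5 CPM in Col-0 and 110.2 to 121.3 CPM in RNAi-MARS at 0 h, and 340.0 to 593.4 and 278.6 to 323.2 CPM at 4 h. Library C of Col-0 at 4 h held the highest sum, with HSP17.6A at 32.1 CPM against 2.39 and 3.64 CPM in libraries A and B. HSFA2, HSP90.1 and HSP101 also stood far above A and B in that library, whereas HSP70 and MBF1C did not. HSP70 was the largest part of the sum throughout. At 4 h it spanned 240.6 to 317.1 CPM in Col-0 and 153.1 to 180.5 CPM in RNAi-MARS, and MBF1C was lower in RNAi-MARS too. HSFA2, HSP17.6A, HSP101 and HSP90.1 differed from this at 4 h. For these genes each RNAi-MARS library stood above A and B of Col-0 and below C. HSFA2, for example, was at 12 to 14.1 CPM against 3.46, 3.79 and 28.2 CPM in Col-0 A, B and C. The part of these differences in the results was not tested, and in RNA from whole seedlings a change in the cells present and a change in RNA per cell cannot be told apart.

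The regions before the gene starts were searched for motifs on both strands, because several clock and ABA factors are known to bind such motifs. Sequences and positions are from the RefSeq copy of TAIR10.1, whereas the files were counted on TAIR10 and hold no coordinates. The evening element, AAAATATCT, was present within 250 bases before to 50 after the start in 4 of the 10 genes and in 2.82% of 27443 promoters. These are the 4 sites in that window, shown 5′ to 3′ on the strand of the gene with 10 bases on either side and the motif in capitals, so that a motif on the opposite strand reads as AGATATTTT:
TOC1, chr5:24674812-24674820: aaatatcatgAGATATTTTctccaagatg
PRR5, chr5:8358725-8358733: gattttttctAGATATTTTcttttctcca
PRR9, chr2:19232633-19232641: ttctctgagaAGATATTTTcgtggttgtg
LUX, chr3:17182989-17182997: tagaagatctAAAATATCTagctaactcg

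In TOC1 the site began 151 bases before the start, in PRR5 187 and in LUX 53, whereas in PRR9 it lay 26 bases after the start. The PRR5 model of TAIR10.1 covers the coding sequence only, so its positions are counted from the start codon. With the window widened to 1000 bases before the start, an alternative chosen after seeing the data, GI and ELF4 also held the element, making 6 of 10 against 7.65% of promoters. GI had 3 copies and ELF4 1, shown the same way:
GI, chr1:8060942-8060950: gtaagattttAAAATATCTtaaaagatgt
GI, chr1:8060974-8060982: aggcccatttAGATATTTTctcaacgggc
GI, chr1:8061160-8061168: agctcccctcAAAATATCTgtggacatat
ELF4, chr2:16735481-16735489: atactacaaaAAAATATCTtgcggattat

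The ABA-responsive element (ABRE), searched as ACGTGGC and ACGTGTC, was present in the shorter window in TOC1, PRR3, PRR7, PRR9, LUX and, 11 bases after the start, GI, making 6 of 10 genes against 7.64% of promoters. PRR9 had 3 copies and PRR3 had 2 in that window, and in PRR7, PRR9 and LUX a copy overlapped a G-box, CACGTG, a motif found in those 3 genes and in 7.68% of promoters. The longer window added PRR5, for 7 of 10 against 15.2%. The ABRE copies nearest before the start, with the motif in capitals, were:
PRR3, chr5:24201458-24201464: ggttagttctGCCACGTcatcaaactc
PRR9, chr2:19232524-19232530: ctcatattaaGCCACGTcagctcagtg
TOC1, chr5:24674831-24674837: ctccaagatgACGTGGCcttttctcta
LUX, chr3:17182850-17182856: ttttcactccACGTGGCtccatcttac
PRR7, chr5:642224-642230: ccaccattacACGTGTCagttcaaaaa

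The site bound by LUX in the evening complex, searched as GATACG and GATTCG, was present in the shorter window in PRR9, ELF3 and ELF4 (14.5% of promoters), and the CCA1 binding site AAAAATCT in PRR5 alone of the 10 (7.88% of promoters). In the longer window the LUX binding site was present in 8 of the 10, beside 41.5% of promoters. The CCA1 binding site was there in 2 (22.1% of promoters) and the G-box in 3 (15.9%). Neither window of ZTL held any of the 5 motifs. The 250 bases before the starts of TOC1 (chr5:24674713-24674962), PRR9 (chr2:19232357-19232606) and LUX (chr3:17182792-17183041) are given whole because each carries several of the motifs, which are in capitals. A match describes these letters and is not a measured binding site.
TOC1: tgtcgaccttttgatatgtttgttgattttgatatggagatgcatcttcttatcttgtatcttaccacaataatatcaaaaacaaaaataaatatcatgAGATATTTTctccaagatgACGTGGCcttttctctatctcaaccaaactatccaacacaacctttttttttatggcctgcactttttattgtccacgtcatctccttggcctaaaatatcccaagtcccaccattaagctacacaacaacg
PRR9: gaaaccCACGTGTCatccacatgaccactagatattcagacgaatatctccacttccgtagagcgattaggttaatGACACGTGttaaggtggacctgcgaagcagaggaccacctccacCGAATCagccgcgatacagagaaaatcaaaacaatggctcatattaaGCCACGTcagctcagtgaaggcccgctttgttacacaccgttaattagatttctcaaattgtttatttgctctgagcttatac
LUX: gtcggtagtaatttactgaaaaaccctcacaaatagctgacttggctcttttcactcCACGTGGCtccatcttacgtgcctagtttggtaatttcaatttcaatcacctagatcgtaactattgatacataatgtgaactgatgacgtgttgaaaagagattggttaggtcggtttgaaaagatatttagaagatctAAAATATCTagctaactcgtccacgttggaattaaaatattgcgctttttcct

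**Figure D1:**
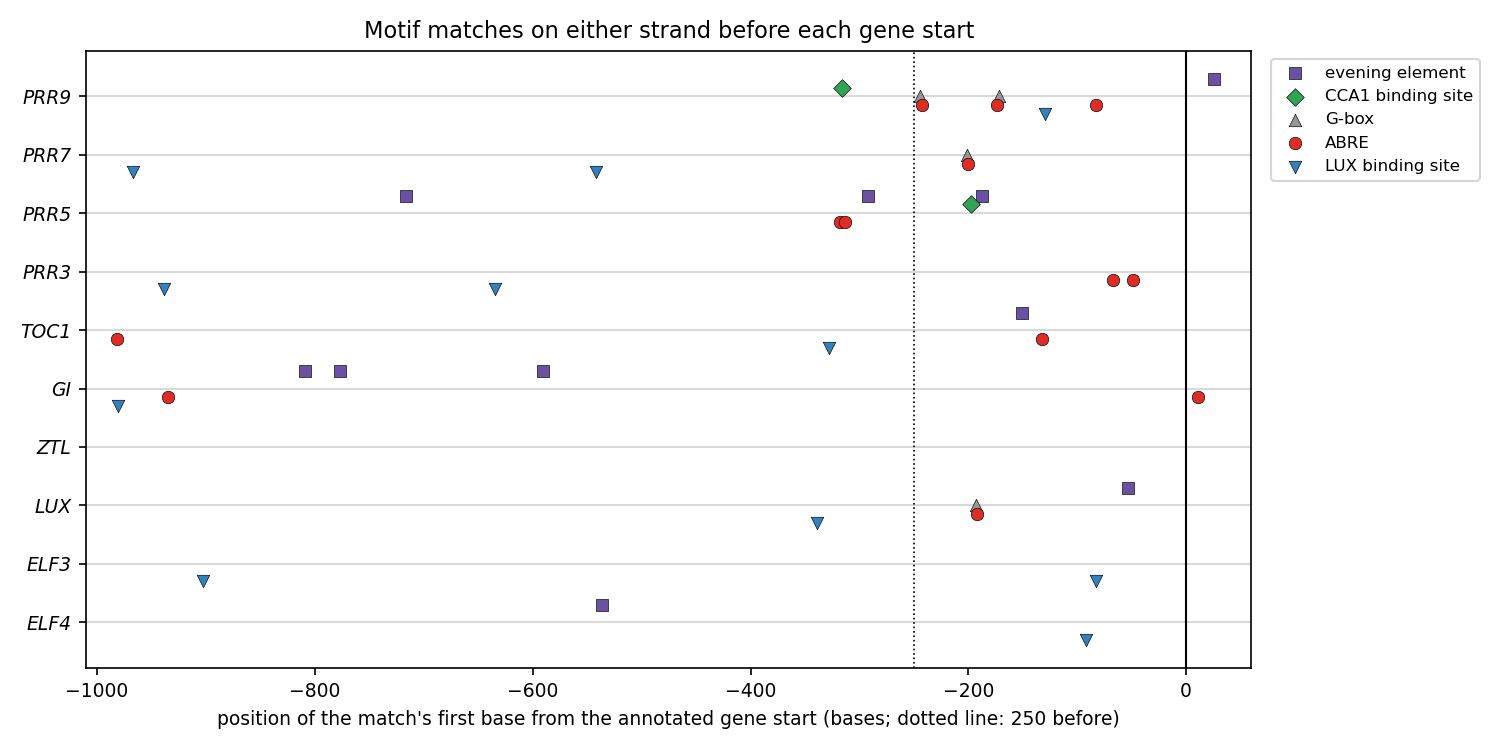
Motif matches from 1000 bases before to 50 after the annotated start of each of the 10 genes. The horizontal axis is the distance of the match's first base from the start, the dotted line marks 250 bases before it, and the rows of TOC1, PRR5, PRR9, GI, ELF4 and LUX hold evening elements while the row of ZTL is empty.

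From 0 h to 4 h after the spray, 7 of the 10 genes rose and 1, ZTL, fell in Col-0, and 8 rose and ZTL fell in RNAi-MARS, at an adjusted p under 0.05 over all tested features. Of all features, 40.0% were called in Col-0, 20.7% higher and 19.3% lower, and 42.6% in RNAi-MARS, 21.6% higher and 21.0% lower. The median log2 fold change of the 10 genes was 1.32 in Col-0 and 1.29 in RNAi-MARS, beside −0.00454 and −0.0192 over all tested features. PRR5, PRR3, GI and ELF4 rose at least 4-fold in both genotypes, which 2.72% and 3.39% of features did. An increase of at least 2-fold was called in 7 of the 10 in Col-0 and 8 in RNAi-MARS, beside 7.32% and 8.56% of features. Libraries of the 2 times did not overlap for 8 of the 10 in Col-0 and 9 in RNAi-MARS, beside 53.0% and 52.4% of features. LUX passed the test in neither genotype, and PRR9 passed it in RNAi-MARS only, a difference that is tested further on.

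**Figure D2:**
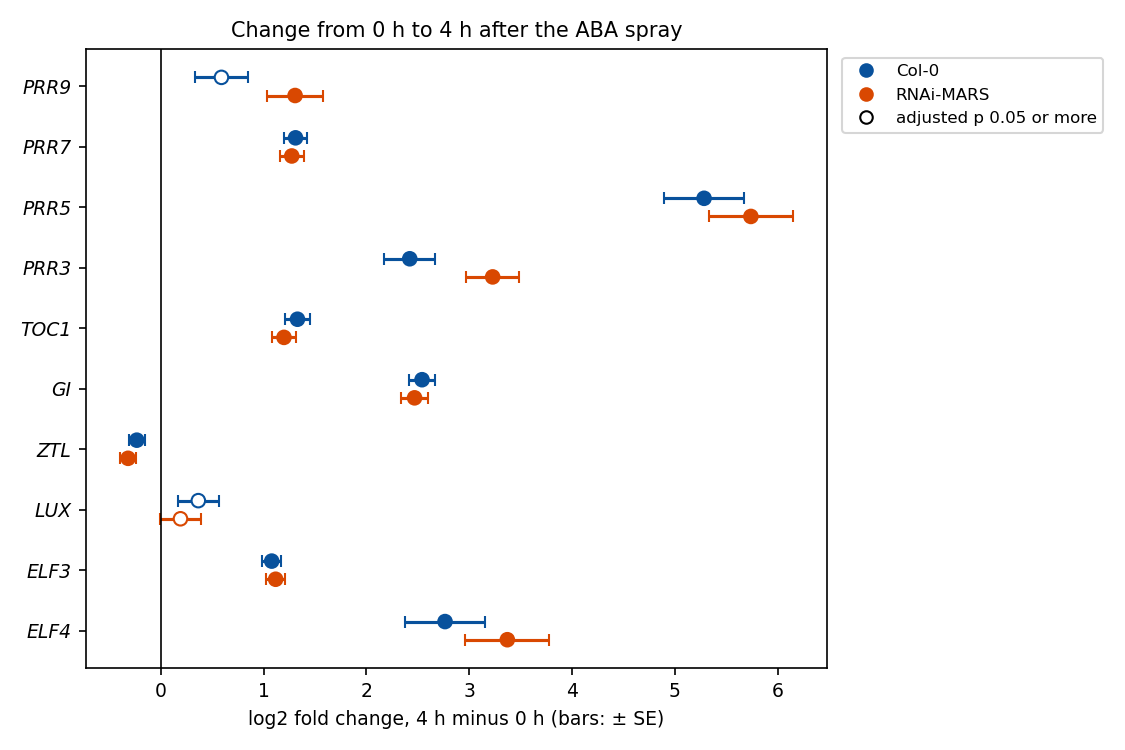
Log2 fold change from 0 h to 4 h of each gene in Col-0 and RNAi-MARS, with bars of 1 standard error (SE) and open symbols where the adjusted p was 0.05 or more. PRR5 lies farthest to the right at 5.28 and 5.74, ZTL alone lies left of 0, and the open symbols are LUX in both genotypes and PRR9 in Col-0.

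PRR9 (AT2G46790, chr2:19232607-19235179) is the earliest of the pseudo-response regulators and represses CCA1 and LHY. It was at 40.3, 25.4 and 20.1 CPM in Col-0 libraries A, B and C at 0 h and at 49.1, 40.5 and 38.9 CPM at 4 h. The RNAi-MARS libraries held 15.5, 10.3 and 14.9 CPM at 0 h and 43.5, 30.4 and 27.1 CPM at 4 h. Library A of Col-0 at 0 h reached the 4 h range, so the Col-0 groups overlapped, while all RNAi-MARS libraries were higher at 4 h than at 0 h. Its log2 fold change in Col-0 was 0.59 ± 0.26 (SE; adjusted p = 0.0980). In RNAi-MARS PRR9 rose by a log2 fold change of 1.31 ± 0.27 (adjusted p = 0.00286). Without library A of Col-0 at 0 h the Col-0 value was 0.91 with an adjusted p of 0.0129.

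PRR9 also had a near-identical partial copy. A stretch of 917 bases at chr2:19164311-19165227, in the gene AT2G46670, matched it with 99.7% identity, and no other member had a match of at least 50 bases and 95% identity elsewhere in the genome. The deposited counts of PRR9 were not whole in 5 of the 12 libraries, so reads had been divided, but the counts do not tell with which gene. The level of AT2G46670, 3.11 to 11.7 CPM at 0 h and 9.32 to 14.4 CPM at 4 h, is uncertain. With the counts of both genes summed, PRR9 had a log2 fold change of 0.58 and an adjusted p of 0.105 in Col-0, and of 1.32 and 0.00263 in RNAi-MARS, which are the same calls.

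PRR7 (AT5G02810, chr5:637681-642030), a partner of PRR9 in morning repression and in entrainment to temperature, was the most abundant of the family. Its level was 82.2, 86.0 and 88.0 CPM in Col-0 at 0 h and 221.1, 209.3 and 205.0 CPM at 4 h. In RNAi-MARS it was 70.4, 85.0 and 88.6 CPM at 0 h and 220.7, 168.5 and 200.9 CPM at 4 h. Every 4 h library stood above every 0 h library. PRR7 rose 2.48-fold in Col-0 (log2 fold change 1.31 ± 0.12, adjusted p = 9.04e-06) and 2.42-fold in RNAi-MARS (1.27 ± 0.12, adjusted p = 9.48e-06).

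PRR5 (AT5G24470, chr5:8356204-8358546), which peaks in the afternoon and is a substrate of ZTL, had the largest fold changes of the 10. It was near the limit of counting at 0 h, with 9, 30 and 19 reads in the Col-0 libraries and 3, 13 and 26 in RNAi-MARS, or 0.449, 1.04 and 0.594 CPM and 0.118, 0.674 and 0.724 CPM. At 4 h it was at 23.4, 26.3 and 33.9 CPM in Col-0 and 24.2, 24.5 and 34.5 CPM in RNAi-MARS. The times did not overlap, and library C was the highest at 4 h in both genotypes. The increase was 38.95-fold in Col-0 (log2 fold change 5.28 ± 0.39, adjusted p = 4.85e-06) and 53.4-fold in RNAi-MARS (5.74 ± 0.41, adjusted p = 3.43e-06). By log2 fold change PRR5 ranked 49th and 57th from the top of the 22465 features.

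PRR3 (AT5G60100, chr5:24197971-24201415), known to bind TOC1 and shield it from ZTL, was the least abundant member. It had 0.499, 0.658 and 0.500 CPM in Col-0 at 0 h, from 10 to 19 reads, and 2.18, 3.32 and 3.50 CPM at 4 h. In RNAi-MARS it had 0.274, 0.363 and 0.390 CPM at 0 h, from 7 to 14 reads, and 3.30, 3.29 and 3.19 CPM at 4 h. The 0 h and 4 h libraries did not overlap in either genotype. PRR3 rose 5.36-fold in Col-0 (log2 fold change 2.42 ± 0.25, adjusted p = 2.36e-05) and 9.37-fold in RNAi-MARS (3.23 ± 0.26, adjusted p = 4.28e-06).

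TOC1 (AT5G61380, chr5:24674963-24678550), the evening member that represses CCA1 and LHY, was at 12.5, 15.9 and 15.4 CPM in Col-0 at 0 h and 34.2, 34.3 and 41.96 CPM at 4 h. Levels in RNAi-MARS were 15.2, 16.2 and 16.2 CPM at 0 h and 31.8, 39.6 and 38.1 CPM at 4 h. All 6 libraries at 4 h were above all 6 at 0 h. The increase was 2.51-fold in Col-0 (log2 fold change 1.33 ± 0.12, adjusted p = 1.12e-05) and 2.29-fold in RNAi-MARS (1.20 ± 0.12, adjusted p = 1.86e-05).

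**Figure D3:**
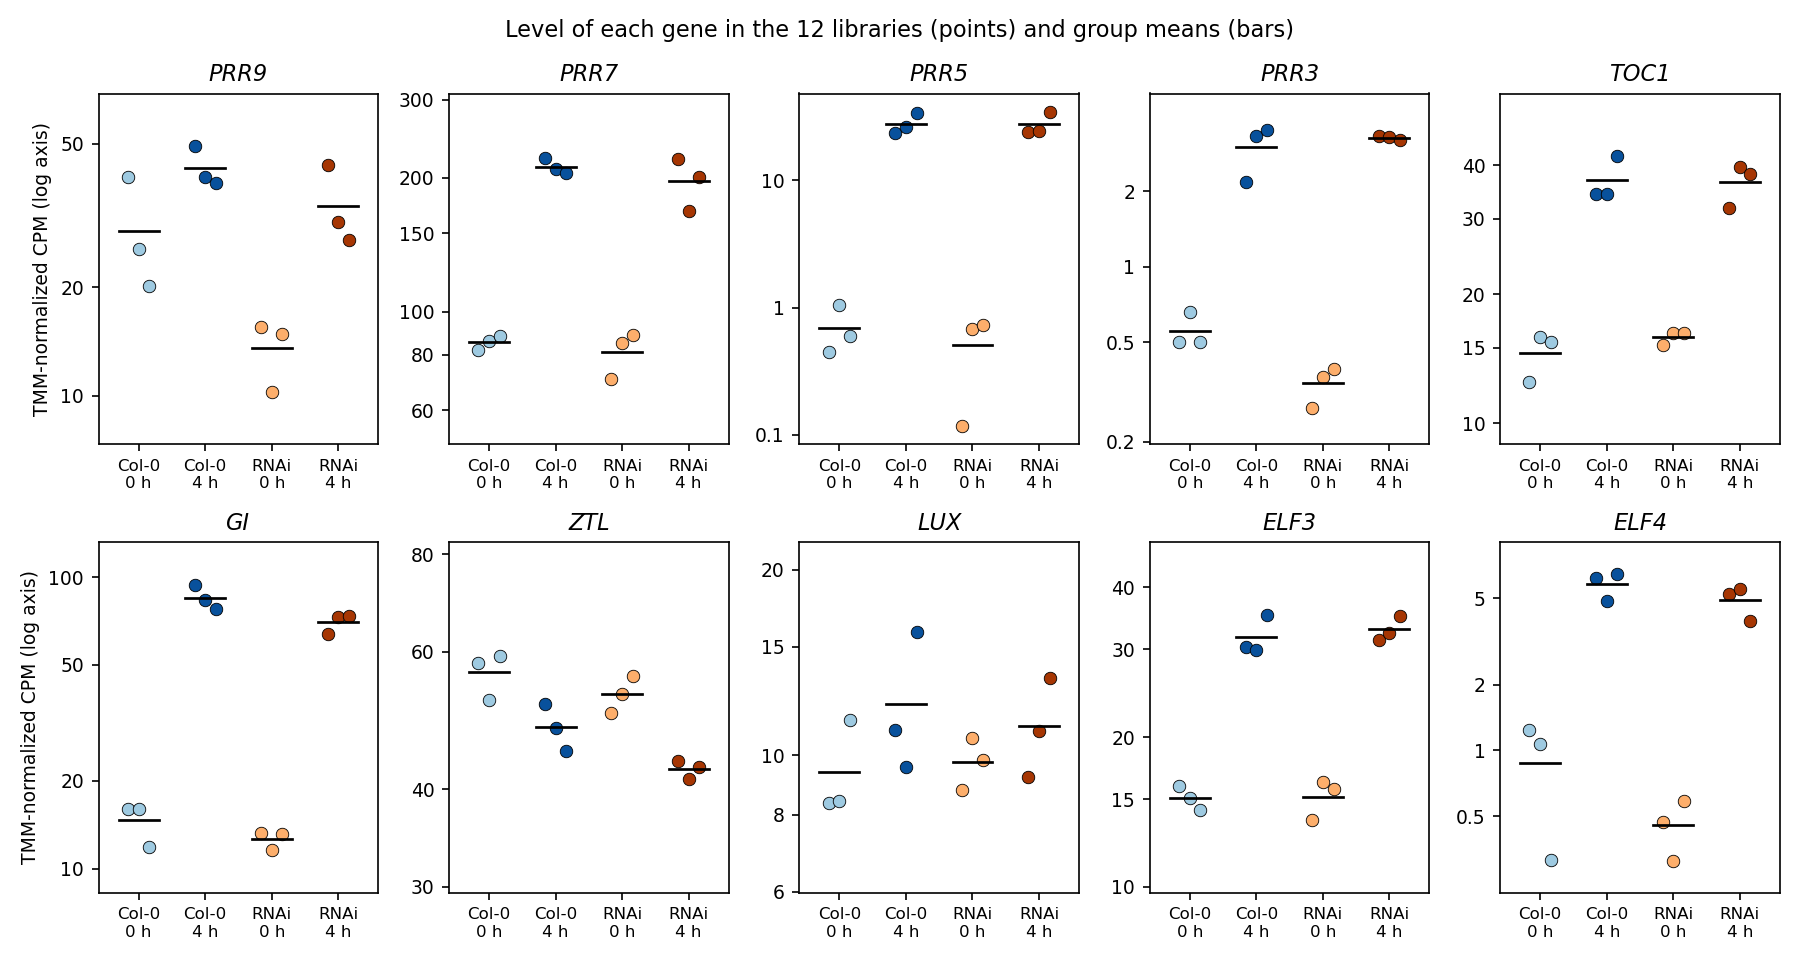
Level of each gene in every library in CPM on a log axis, with libraries A, B and C from left to right in each group and a bar at the group mean. PRR5, PRR3, GI and ELF4 are far higher in the 4 h groups, LUX overlaps between the times, ZTL is somewhat lower at 4 h, and PRR9 in Col-0 at 0 h runs from 20.1 to 40.3 CPM.

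GI (AT1G22770, chr1:8061751-8067790), a large protein of the flowering and clock pathways, had the lowest p of the 10 in both genotypes, ranking 34th and 35th of all features. It was at 16.1, 16.0 and 11.9 CPM in Col-0 at 0 h and at 94.3, 83.4 and 77.5 CPM at 4 h. In RNAi-MARS it was at 13.2, 11.6 and 13.1 CPM at 0 h and at 63.8, 72.8 and 73.8 CPM at 4 h. The times were widely separated, and at 4 h every RNAi-MARS library was below every Col-0 library. GI rose 5.82-fold in Col-0 (log2 fold change 2.54 ± 0.13, adjusted p = 2.17e-07) and 5.53-fold in RNAi-MARS (2.47 ± 0.13, adjusted p = 2.82e-07).

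ZTL (AT5G57360, chr5:23241320-23244590), whose protein is known to cycle while its transcript is nearly constant, was the single member that fell. It was at 58.1, 52.1 and 59.2 CPM in Col-0 at 0 h and 51.5, 47.9 and 44.7 CPM at 4 h. In RNAi-MARS it was at 50.1, 52.9 and 55.8 CPM at 0 h and 43.5, 41.3 and 42.7 CPM at 4 h. The decrease was small, but each 4 h library was below each 0 h library of the same genotype. ZTL had a log2 fold change of −0.23 ± 0.08 with an adjusted p of 0.0358 in Col-0, and of −0.32 ± 0.08 with an adjusted p of 0.00735 in RNAi-MARS. The Col-0 call was lost under 7 of 21 alternatives, among them leaving out library A or C of Col-0 at 0 h, B or C of Col-0 at 4 h, or B of RNAi-MARS at 0 h, with adjusted p-values of 0.0517 to 0.125.

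LUX (AT3G46640, chr3:17183042-17186959), the DNA-binding subunit of the evening complex, was at 8.37, 8.42 and 11.4 CPM in Col-0 at 0 h and 10.99, 9.56 and 15.9 CPM at 4 h. RNAi-MARS gave 8.77, 10.7 and 9.83 CPM at 0 h and 9.21, 10.9 and 13.3 CPM at 4 h. The times overlapped in both genotypes, and library C of each 4 h group was the highest. LUX had a log2 fold change of 0.37 ± 0.20 with an adjusted p of 0.174 in Col-0, and of 0.19 ± 0.20 with an adjusted p of 0.472 in RNAi-MARS. LUX shares 698 exonic bases with AT3G46650 on the opposite strand, which had 3.58 to 10.6 CPM, and the strand setting of the counting is not given in the sources used here, so its level is uncertain.

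ELF3 (AT2G25930, chr2:11058944-11063324), the scaffold that joins the other evening complex subunits, was at 16.0, 15.1 and 14.3 CPM in Col-0 at 0 h and 30.4, 29.9 and 35.2 CPM at 4 h. RNAi-MARS libraries were at 13.6, 16.2 and 15.7 CPM at 0 h and 31.3, 32.5 and 35.1 CPM at 4 h. At each time the genotypes overlapped, and the times did not. ELF3 rose 2.11-fold in Col-0 (log2 fold change 1.08 ± 0.09, adjusted p = 8.88e-06) and 2.17-fold in RNAi-MARS (1.12 ± 0.09, adjusted p = 6.07e-06).

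ELF4 (AT2G40080, chr2:16734294-16734953), a small protein that strengthens ELF3 function, was scarce at 0 h, at 1.25, 1.07 and 0.313 CPM in Col-0 and 0.470, 0.311 and 0.585 CPM in RNAi-MARS, from 6 to 31 reads. At 4 h it was at 6.19, 4.83 and 6.46 CPM in Col-0 and 5.23, 5.50 and 3.91 CPM in RNAi-MARS. Library C of Col-0 was far below A and B at 0 h, but all 0 h libraries lay below those at 4 h. ELF4 rose 6.79-fold in Col-0 (log2 fold change 2.76 ± 0.39, adjusted p = 2.19e-04) and 10.3-fold in RNAi-MARS (3.37 ± 0.41, adjusted p = 7.18e-05).

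Levels can be compared between genes only per length, and the CPM per kb of exon gave a different order at each time. In Col-0 at 0 h PRR7 was the highest (25.4 to 27.2 CPM per kb), followed by ZTL (21.4 to 24.3) and PRR9 (9.38 to 18.8), which did not overlap each other. ELF3 (5.19 to 5.80) and TOC1 (4.46 to 5.66) overlapped, as did GI (2.76 to 3.73) and LUX (2.14 to 2.92). ELF4 (0.505 to 2.01), PRR5 (0.268 to 0.620) and PRR3 (0.178 to 0.235) closed the order, ELF4 and PRR5 overlapping. In RNAi-MARS at 0 h the order of the means was the same except that TOC1 and ELF3, at 5.43 to 5.78 and 4.96 to 5.90, changed places, and PRR7 overlapped ZTL, PRR9 overlapped TOC1 and ELF3, and PRR5 overlapped PRR3.

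At 4 h in Col-0 PRR7 stood alone at 63.4 to 68.4 CPM per kb, and PRR9, GI, ZTL and PRR5 followed at levels that overlapped, between 14.0 and 23.0. TOC1 (12.2 to 14.9) overlapped PRR5 and ELF3 (10.9 to 12.8), and ELF4 (7.81 to 10.4), LUX (2.44 to 4.05) and PRR3 (0.776 to 1.25) each stood apart. In RNAi-MARS at 4 h PRR7 was at 52.1 to 68.3, ZTL, PRR5, GI and PRR9 overlapped between 12.6 and 20.6, and LUX and PRR3 were again the lowest. PRR5 and GI thus joined ZTL, which they were far below at 0 h. The value of PRR5 rests on a coding length, and that of LUX on 3916 exonic bases of which 698 are shared with an opposite gene, so both are less certain per kb.

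**Figure D4:**
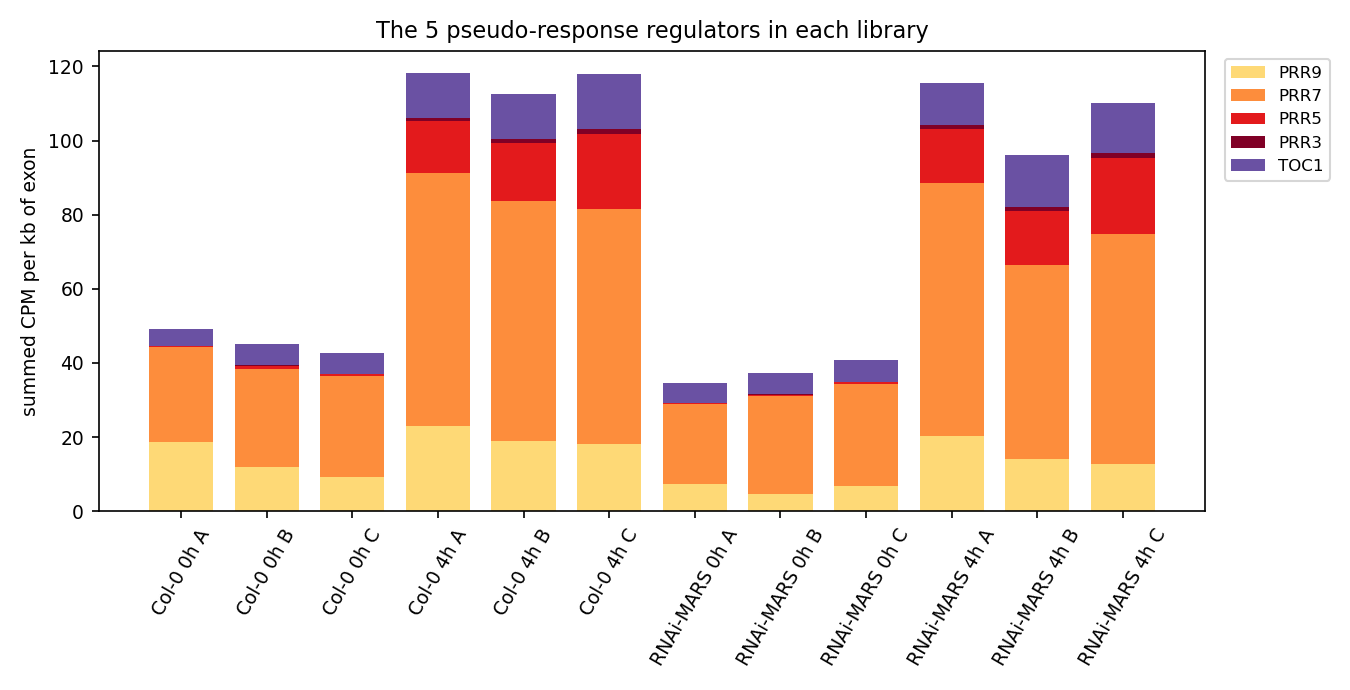
Summed level of the 5 pseudo-response regulators in CPM per kb of exon in each of the 12 libraries, each bar divided by gene. The sum is 34.6 to 49.1 in the 0 h libraries and 96.2 to 118.3 in the 4 h libraries, PRR7 is the largest segment in all of them, and the PRR5 segment is wide only at 4 h.

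Within the pseudo-response regulators the summed level per kb was 42.6 to 49.1 in Col-0 and 34.6 to 40.7 in RNAi-MARS at 0 h, and 112.7 to 118.3 and 96.2 to 115.5 at 4 h. PRR7 made up 58.2% ± 6.1 (SD, n = 3) of the sum in Col-0 at 0 h and 56.3% ± 2.2 at 4 h. The share of PRR5 was 0.917% ± 0.423 and 14.3% ± 2.7, and that of PRR9 was 28.9% ± 8.4 and 17.2% ± 2.0. In RNAi-MARS the share of PRR5 was 0.780% ± 0.500 at 0 h and 15.5% ± 3.1 at 4 h, and that of PRR9 was 17.0% ± 4.1 and 14.6% ± 3.1. The share of PRR5 did not overlap between the times in either genotype, whereas that of PRR9 was apart in Col-0 and overlapped in RNAi-MARS. TOC1 held 9.07% to 12.9% of the sum in Col-0 at 0 h and 10.3% to 12.7% at 4 h.

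RNAi-MARS was then compared with Col-0 at each time, which asks whether lowering MARS changes these genes before or after the hormone. None of the 10 passed the test at 0 h, at 4 h, averaged over both times, or for the difference between the 2 responses. MARS itself was not called by this test either, with log2 differences of −4.12 ± 1.05 at 0 h (adjusted p = 0.996) and −2.74 ± 0.77 at 4 h (adjusted p = 0.477), so a missed threshold does not show that a gene was alike in both genotypes. Calls were rare overall: 0.0890% of features at 0 h, 0.0890% at 4 h, 0.0979% for the average and 0 features for the difference between responses, where 1076 features had an unadjusted p under 0.05 and DESeq2 called 4. At an unadjusted p under 0.05 there were 2 of the 10 genes at 0 h, 2 at 4 h, 3 for the average and 1 for the difference between responses, beside 4.33%, 8.82%, 7.98% and 4.79% of features. The libraries of the 2 genotypes did not overlap for PRR3 and PRR9 at 0 h and for GI and ZTL at 4 h, 2 of 10 each time beside 11.3% and 11.7% of features. All 4 were lower in RNAi-MARS, which held for 6.12% of features at 0 h and 5.81% at 4 h.

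PRR9 had the largest difference between the genotypes. Before ABA, at the per-library levels given above, it was lower in all 3 RNAi-MARS libraries (mean 13.6 ± 2.9 CPM, SD) than in all 3 Col-0 libraries (28.6 ± 10.5 CPM), with a log2 difference of −1.07 ± 0.27 (SE), an unadjusted p of 0.00241 and an adjusted p of 0.996. DESeq2 called it at 0 h (log2 difference −1.08, adjusted p = 0.0458) and for the average of both times (−0.71, adjusted p = 0.0376), and over all alternatives the adjusted p ran from 0.0458 to 1 and from 0.0376 to 0.969. Without library A of Col-0 at 0 h, which held the highest PRR9 and the highest heat shock sum of the 0 h libraries, the log2 difference at 0 h was −0.74. After ABA the log2 difference was −0.35 ± 0.26 (adjusted p = 0.710), and the difference between the 2 responses of PRR9 was 0.72 ± 0.37 on the log2 scale (adjusted p = 0.946). The heat shock sum was likewise lower in all RNAi-MARS libraries at 0 h, and its part in the PRR9 difference was not tested.

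Among the other genes, PRR3 was lower in RNAi-MARS at 0 h by a log2 difference of −0.68 ± 0.28 (unadjusted p = 0.0466, adjusted p = 0.996), from 7 to 19 reads per library. Its response was larger in RNAi-MARS by 0.81 ± 0.35 on the log2 scale, with an adjusted p of 0.946. At 4 h GI differed by −0.28 ± 0.12 (adjusted p = 0.553) and ZTL by −0.18 ± 0.08 (adjusted p = 0.559). ELF4 differed by −0.86 ± 0.44 at 0 h, with an adjusted p of 0.996, and PRR5 by −0.46 ± 0.51. TOC1, PRR7, ELF3 and LUX had log2 differences between −0.12 and 0.12 at either time, with standard errors of 0.09 to 0.20.

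**Figure D5:**
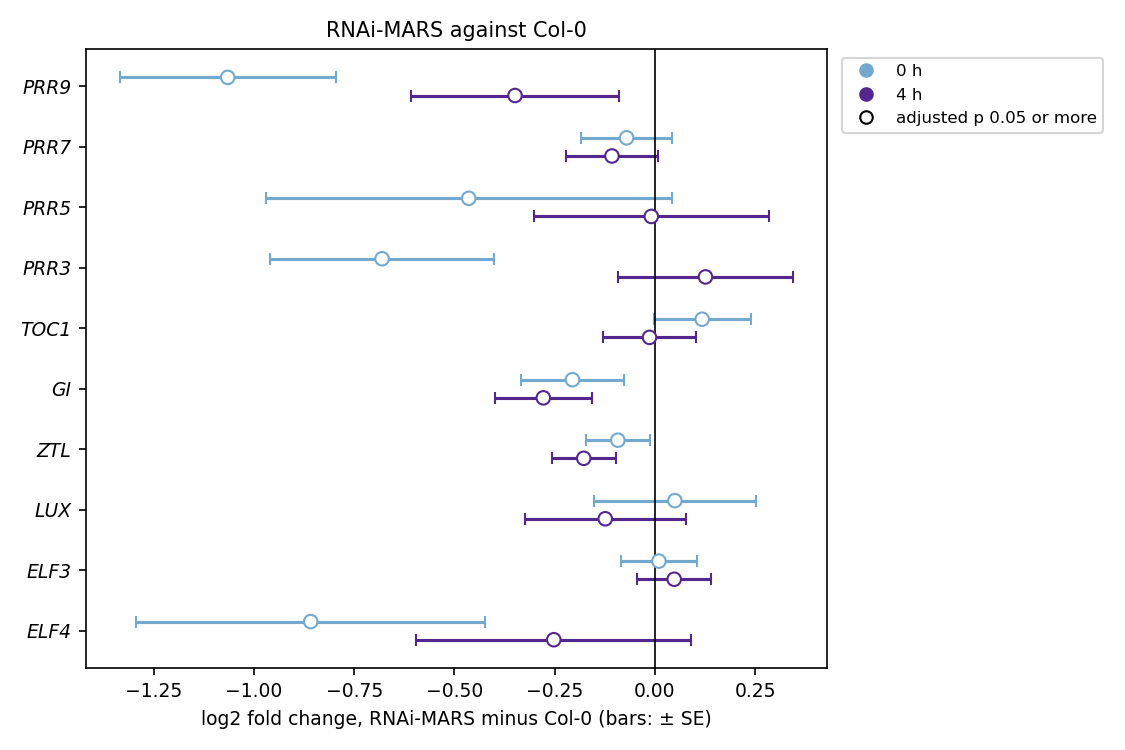
Log2 difference between RNAi-MARS and Col-0 for each gene at 0 h and at 4 h, with bars of 1 SE. All symbols are open because no adjusted p was under 0.05, and PRR9 at 0 h, at −1.07, lies farthest from 0.

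The other genes of the clock were described from lists of named genes. Of 14 morning factors, the dawn MYB proteins and their LNK coactivators, 10 fell and 1 rose in Col-0 (median log2 fold change −1.86). In RNAi-MARS 9 fell and 1 rose (median −1.45). Of all features, 19.3% were called lower and 20.7% higher in Col-0, and 21.0% and 21.6% in RNAi-MARS, with medians of −0.00454 and −0.0192. LHY was at 372.9 to 433.5 CPM in Col-0 at 0 h and at 10.3 to 13.6 CPM at 4 h, a log2 fold change of −5.15 ± 0.17 (adjusted p = 1.91e-08), and its log2 fold change in RNAi-MARS was −4.37 ± 0.17. CCA1 fell by 2.48 ± 0.16 on the log2 scale in Col-0 and by 2.25 ± 0.16 in RNAi-MARS. RVE8, an activator of evening genes, fell by 2.93 and 2.53, RVE1, a link from the clock to auxin, by 3.46 and 2.39, and LNK2 by 2.30 and 2.27. RVE6 rose, by a log2 fold change of 0.44 and 0.66, and RVE5, RVE7 and LNK1 passed the test in neither genotype. RVE5, LNK1 and RVE1 share 681, 245 and 225 exonic bases with genes on the opposite strand, so their counts are less certain.

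Of 16 relatives and partners of the 10 genes, 7 rose and 3 fell in each genotype, beside 20.7% of all features higher and 19.3% lower in Col-0 and 21.6% and 21.0% in RNAi-MARS. Their median log2 fold change was 0.0237 in Col-0 and 0.148 in RNAi-MARS. FKF1, a relative of ZTL that promotes flowering, had 0 to 6.33 counts per library at 0 h and 129 to 266.7 at 4 h, with log2 fold changes of 6.02 ± 0.47 and 6.55 ± 0.50. JMJD5, a histone demethylase relative that acts in the clock, rose by log2 fold changes of 1.16 ± 0.22 and 1.43 ± 0.22, and PRMT5, an arginine methyltransferase, fell by 1.21 ± 0.10 and 1.05 ± 0.10 on the log2 scale. ELF4-L1, a relative of ELF4, rose with log2 fold changes of 1.82 and 1.97, and BOA, a close relative of LUX, with 1.39 and 1.49. Both share exonic bases with a gene on the opposite strand, 634 in ELF4-L1 and 1679 in BOA, so their counts are uncertain. LKP2, the other relative of ZTL, passed the test in neither genotype (log2 fold changes −0.03 ± 0.12 and −0.02 ± 0.12). Its count is uncertain too, with 370 exonic bases shared with a gene on the opposite strand.

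Of 12 output genes, 3 rose and 4 fell in each genotype, with medians of 0.137 and −0.0269 on the log2 scale. Of all features, 20.7% were called higher and 19.3% lower in Col-0, and 21.6% and 21.0% in RNAi-MARS. The medians of all features were −0.00454 and −0.0192, and the 3 output genes that rose are near the share called higher. The same 4 genes fell in both genotypes, while CDF3 rose in Col-0 only and GRP8 in RNAi-MARS only. CDF2, a repressor of flowering that GI and FKF1 remove, fell by 2.47 ± 0.16 and 2.05 ± 0.16 on the log2 scale. The RNA-binding protein gene GRP7 rose by log2 fold changes of 2.22 ± 0.17 and 2.52 ± 0.17. The catalase genes CAT2 and CAT3, known to peak at opposite times of day, went in opposite directions: CAT2 fell by 1.81 and 1.96 on the log2 scale and CAT3 rose by log2 fold changes of 1.76 and 1.73. CDF5 had log2 fold changes of −1.82 and −1.63, but shares 1154 exonic bases with an antisense gene. Of 5 ABA genes tied to pseudo-response regulators in the literature, 3 rose and 1 fell in Col-0 and 4 rose and 1 fell in RNAi-MARS. The shares of all features in Col-0 and RNAi-MARS were 20.7% and 21.6% higher and 19.3% and 21.0% lower. RD29A, a stress marker, rose by log2 fold changes of 5.27 ± 0.28 and 5.60 ± 0.28, the bZIP factor gene ABI5 by 3.80 ± 0.35 and 3.46 ± 0.34, and MYB96 by 1.33 ± 0.11 and 1.27 ± 0.11. ABI5 had only 4 to 11 reads per library at 0 h, so its fold changes are less certain. CHLH, a magnesium chelatase subunit gene repressed by TOC1, fell by 0.94 ± 0.14 and 1.29 ± 0.14, and the ABA synthesis gene NCED3 had 0.99 ± 0.37 (adjusted p = 0.0574) and 1.44 ± 0.38 (adjusted p = 0.0116).

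The genes with profiles most like each member over the 12 libraries were found among 15785 nuclear genes with a mean of at least 5 CPM, by the root mean square difference of centred log2 CPM, which is a description of these libraries. Nearest to TOC1 were the citrate synthase gene CSY2 (0.0943) and TLP7 (0.0965), and nearest to ELF3 was the ubiquitin-conjugating enzyme gene UBC2 (0.0793). GI was closest to the carrier gene APC1 (0.131), followed by AT1G13990 (0.170) and the starch degradation gene SEX1 (0.171), and AT1G13990 was also the nearest to PRR3 (0.230). Nearest to PRR5 were the dehydrin gene LTI30 (0.570) and RD29A (0.606), both much farther off than the neighbours of the steadier genes. PRR7 had AT1G51610, AT4G05150 and AT5G59540 at 0.119 to 0.122, ELF4 had AT3G22600, AT1G73480 and FMO GS-OX4 at 0.319 to 0.340, and LUX had AT1G68410, AT5G65660 and BSK7 at 0.122 to 0.132. PRR9 was nearest to its partial copy AT2G46670 (0.124), with which it shares a near-identical stretch of 917 bases, followed by AT1G79520 (0.221) and CSLG3 (0.228). ZTL had the closest match of all, AT1G67890, at 0.04995.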

How the data were processed

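Polyadenylated RNA of 12 libraries was sequenced by the authors. For each library they deposited estimated counts of reads per feature, without normalization; reads had been divided between features, since 5.31% to 7.60% of the features of a library held values that were not whole. Per the submitters' processing notes, TAIR10 was the build, and Subread 1.6.5 with featureCounts, STAR 2.7.2a and Trimmomatic 0.36 were the tools; strand and multi-mapping settings are not given in the sources used here. After rounding, edgeR 4.0.16 in R 4.3.3 gave quasi-likelihood tests on all libraries (TMM, filterByExpr at a minimum count of 10, robust, 1 coefficient per group, 2-sided). P-values were Benjamini-Hochberg adjusted over all 22465 tested features and called under 0.05; SE is |log2 fold change| over the root of F. Levels are TMM-normalized CPM, and likeness used log2 CPM with a prior count of 2. Alternatives were DESeq2 1.42.0, limma 3.58.1 (voom), other scalings and filters, the compared groups alone, a replicate block and leaving out each library. Copies were searched with blastn. All members were named; from each other list up to 4 called genes with the largest change per comparison, up to 3 not called, LHY and CCA1; and for likeness the 3 nearest genes. RVE6, the single riser of its list, and RVE4, a neighbour of PRR7, were named after their values were seen. The members and lists were chosen with earlier results of these data known.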

Additional observations from a re-analysis of the deposited data

How the results depend on the processing

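Of 1240 values of the 10 genes under 21 alternatives, 1198 kept their direction and side of the threshold, 7 lost a call, 4 gained a call and 31 changed sign. None of those that changed sign was called. For the genotype at 4 h, PRR3 and ELF4 had an adjusted p in 20 of 21 alternatives, and a missing one was counted as not called. Summing PRR9 with its copy and the wider promoter window were chosen after seeing the data. The 7 lost calls were all of ZTL in Col-0 (log2 fold change −0.29 to −0.18 over the alternatives). With DESeq2, 1 of the members was called instead of 0 for the genotype at 0 h and 1 instead of 0 for the average of both times, PRR9 each time. Among all features, DESeq2 called 81 instead of 20 for the genotype at 4 h, 106 instead of 22 for the average and 4 instead of 0 for the difference between responses, and 13 features were called at 4 h with the compared groups alone. Leaving out single libraries gave 13 features at 4 h without library A of Col-0 at 4 h and 55 without library C. The cause was not tested.

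For the genotype at 4 h, upper quartile scaling moved TOC1 from −0.01 to 0.00978 and PRR5 from −0.01 to 0.0122 on the log2 scale, and PRR5 was at 0.00259 with no filter on low counts. Leaving out single libraries, the log2 genotype difference at 0 h ranged from −0.0383 to 0.0818 for ELF3, −0.0261 to 0.217 for LUX and −0.137 to 0.0228 for PRR7. At 4 h it ranged from −0.268 to 0.112 for LUX, −0.0554 to 0.253 for PRR3, −0.197 to 0.154 for PRR5, −0.198 to 0.00971 for PRR7 and −0.0630 to 0.0893 for TOC1, and averaged over both times from −0.109 to 0.0803 for LUX. The difference between responses ranged from −0.0349 to 0.116 for ELF3, −0.144 to 0.0597 for GI, −0.3405 to 0.0640 for LUX and −0.131 to 0.0788 for PRR7.

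Same-lettered libraries of different groups had correlations of their deviations from −0.299 to 0.403, with 8 of 18 over 0.1. Libraries with other letters had −0.397 to 0.33, with 9 of 36 over 0.1. These values do not tell whether the letters pair the samples, and the main test used no replicate block. With the letter as a replicate block 9 members were called in Col-0 instead of 8, PRR9 being added (log2 fold change 0.63, adjusted p = 0.0131), and no other call of the members changed. Depth limits PRR3, PRR5 and ELF4 at 0 h, where a library held 3 to 31 reads.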

Other observations

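Ratios between clock genes are given here from levels per kb of exon in each library. The first 3 did not overlap between the times in either genotype, whereas the last, PRR7 to PRR9, overlapped between them in RNAi-MARS. LHY stood at 19.3 to 28.4 times TOC1 in the 6 libraries at 0 h. At 4 h LHY stood at 0.248 to 0.267 times TOC1 in Col-0 and at 0.3875 to 0.487 times TOC1 in RNAi-MARS. CCA1 stood at 8.79 to 17.0 times PRR9 in Col-0 and at 17.5 to 25.9 times PRR9 in RNAi-MARS at 0 h. At 4 h CCA1 stood at 1.31 to 1.46 and 1.56 to 1.97 times PRR9. Differences between the genotypes in these ratios were not tested. GI stood at 0.114 to 0.174 times ZTL at 0 h and at 0.832 to 1.04 times ZTL at 4 h. The ratio of PRR7 to PRR9 was 1.35, 2.24 and 2.90 in Col-0 at 0 h and 3.01, 5.48 and 3.94 in RNAi-MARS at 0 h. At 4 h it was 2.98, 3.42 and 3.49 in Col-0 and 3.36, 3.67 and 4.92 in RNAi-MARS.

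A pair of members lie near a morning factor on the chromosome: PRR7 is 6.62 kb from RVE4 on chromosome 5, and PRR9 is 10.4 kb from CCA1 on chromosome 2. RVE4 fell by 1.23 ± 0.12 on the log2 scale in Col-0 and by 1.20 ± 0.12 in RNAi-MARS and PRR7 rose in both. CCA1 fell in both genotypes, and PRR9 rose in RNAi-MARS and did not pass the test in Col-0 (adjusted p = 0.0980).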
